A study of Homo sapiens with 3 samples.

Results

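The genes described here are 35 genes of homologous recombination and of the Fanconi anaemia pathway of crosslink repair, of 52992 genes with values. Their transcripts were found by Ensembl identifier, and the values of 404 transcripts, of 196354 in each table, were summed per gene. The RNA came from TE5, an established cell line of human esophageal squamous cell carcinoma. In the shKLF5 group, TE5 cells were transfected with short hairpin RNA against KLF5, a zinc finger transcription factor of epithelia, and gave 2 libraries that the labels number 1 and 2. The scramble group, TE5 cells transfected with a scrambled control, gave 1 library. All cells were harvested after 48 h, and nothing in the labels says whether the shKLF5 libraries are separate hairpins or separate cultures, so p-values measure only how these libraries vary, which may be technical.

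Homologous recombination mends broken chromosomes without loss of sequence by copying the sister chromatid. Broken ends are trimmed to single strands by the MRN complex with CtIP and then by longer-range nucleases, the BRCA proteins prepare the exposed strand, and motor proteins help it to invade the sister. In the Fanconi pathway a core complex with ubiquitin ligase activity marks the FANCD2 and FANCI pair at crosslinked DNA, after which nucleases cut the crosslink out and recombination completes the repair. Many genes of both pathways are transcribed mainly in S and G2 phase, when a sister is there to copy.

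The libraries held 33544752 and 32720563 estimated counts in shKLF5 libraries 1 and 2, against 33448976 in scramble. Transcripts above 0 counts numbered 115063 and 114052, against 100748 in scramble, so the libraries differed in composition at like totals. KLF5 had 1333 and 1531 counts in the shKLF5 libraries, against 8402 in scramble, and an estimate of -2.96 on the log2 scale (SE 0.34), which did not pass adjustment either (edgeR adjusted p = 0.182). Squamous markers were found in every library, but at very unequal levels. KRT5 had 34119 and 13095 counts in shKLF5 libraries 1 and 2, against 142684 in scramble. KRT14 had only 37 and 10 counts, against 659, and CDH3 had 22 and 18, against 9. On the normalised scale 9 of the 10 markers lay below scramble in each shKLF5 library and 1 lay above it in each. The 10 markers summed to 1310 and 618 TPM (a level per transcript length) in shKLF5 libraries 1 and 2, against 3720 TPM in scramble. The 7 leukocyte markers summed to 11 and 14.8 TPM, against 4.30 TPM in scramble, where CD3E and LYZ were at 0 counts. The 4 endothelial markers in the tables summed to 1.17 and 1.48 TPM, against 0.347 TPM in scramble with CDH5 and KDR at 0 counts. The 6 fibroblast markers gave 26.3 and 15.4 TPM, against 16.7 TPM in scramble, and the 5 glandular markers in the tables gave 0.180 and 0.143 TPM, against 0.0616 TPM, with MUC2 and TFF1 at 0 counts in all 3 libraries. What part these differences have in the results below was not tested.

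No repair gene passed the test. The lowest estimates, given throughout as log2 fold changes of shKLF5 over scramble, were those of RBBP8 (-1.56), NBN (-1.32), BARD1 (-1.29) and FANCE (-1.17), which act in end resection, in the BRCA1 complex and in the Fanconi core. MUS81 (0.45) and FANCB (0.43), a nuclease subunit and a core subunit, had the highest. All 35 genes passed the filter on low counts. With TMM scaling, 24 of the 35 (68.6%) lay below scramble in each shKLF5 library, 2 (FANCB and MUS81) lay above it in each and 9 were split, beside 36.5% of the 20629 genes tested, and 41.6% of the protein-coding ones, below in each and 37.9% above in each. The median log2 fold change of the members was -0.22, with -0.35 in library 1 and -0.23 in library 2. Beside it stood 0.04 for all genes tested and -0.05 for the protein-coding ones. The members' median minus that of all genes fitted was -0.26. It was -0.17 with protein-coding genes only and -0.13 with a mean CPM of at least 5. The sign of the members' median depends on how libraries were scaled. By library size alone the median of the members was 0.21 and that of all genes 0.47, a difference of -0.26 in either case, and on the log2(TPM + 1) scale the members' median was 0.18 against 0.26 for all genes. Below scramble in each library were then 11 members by library size, beside 12.5% of all genes, and 12 by TPM, beside 11.3%. In shKLF5 library 1 alone 31 members lay below scramble, beside 50.2% of all genes, and in library 2 alone 26, beside 48.3%. Summed over the 35 genes, the level was 559 and 546 TPM in shKLF5 libraries 1 and 2, against 537 TPM in scramble.

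By edgeR's quasi-likelihood test 0 of the 35 members had a Benjamini-Hochberg adjusted p under 0.05, and the background was 0 of 20629 genes (0%). Adjusted p-values of the members ran from 0.474 to 0.992. At an unadjusted p under 0.05 stood 4 members (11.4%), RBBP8, NBN, FANCE and BARD1, each lower, beside 3.50% of all genes lower and 5.68% higher. That count was 0 with library size alone, with no filter on low counts and on both TPM scales, 2 with a mean CPM of at least 5, and 3 with length-scaled TPM, where NBN, FANCE and RAD54L stood. DESeq2, which called 0.562% of all genes and 0.252% as lower, also called 0 of the members. So did edgeR's legacy fit, which called 0.102% of all genes and 0.0776% as lower. With 2 libraries against 1, an exact permutation test of a single gene cannot give a p below 0.333. These are bulk RNA values, so fewer cells in S and G2 phase and less RNA per cell cannot be told apart.

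**Figure D1:**
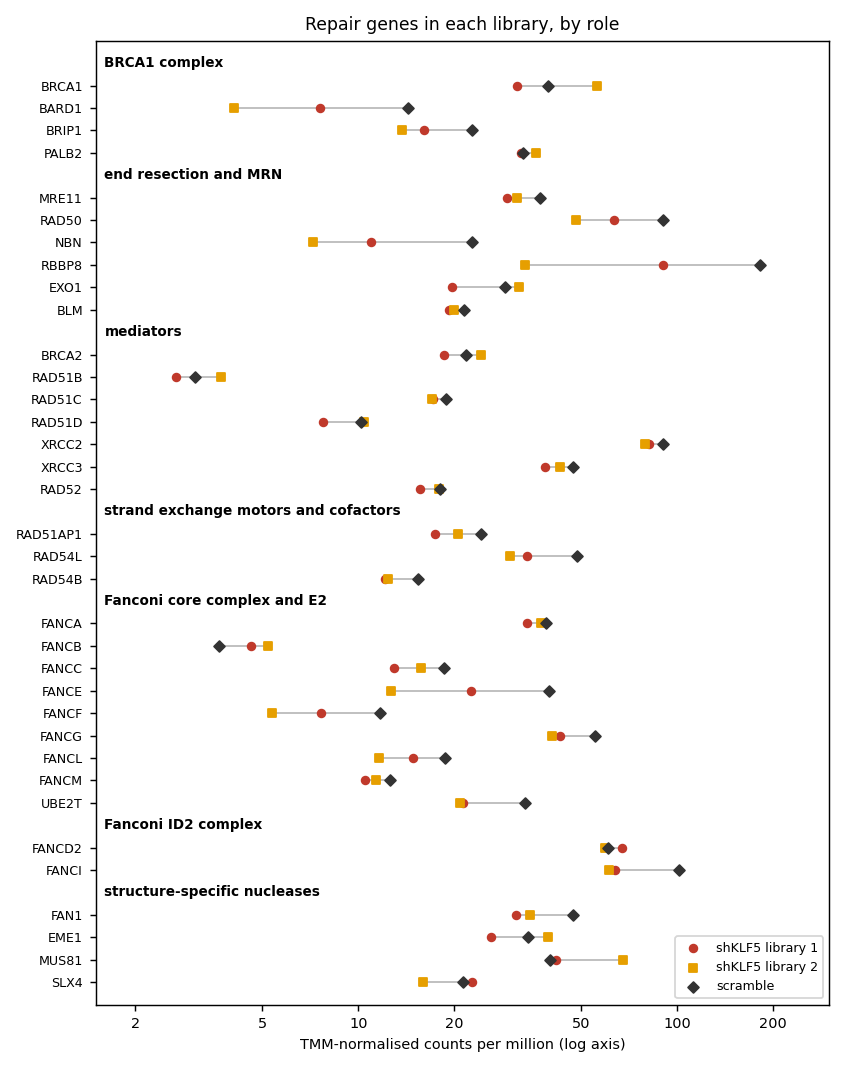
Level of each of the 35 repair genes in each library, in TMM-normalised CPM (counts scaled to library size) on a log axis, grouped by role; each point is 1 library and the grey line joins the lowest and the highest. RBBP8, NBN, BARD1, FANCE and FANCF lie left of scramble in both shKLF5 libraries, while MUS81 and FANCB do not.

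Promoter windows from RefSeq (GRCh38.p14), from 250 bases before to 50 after each annotated start, were found for 32 of the 35 members, all but FANCI, NBN and RAD54B. Those of BARD1, FANCE and RBBP8, 3 of the 4 members with the lowest unadjusted p, are shown with that of FANCD2, a member with an estimate near 0 and no match, picked after the matches were counted, because KLF factors are known to bind GC-rich boxes of the form CCNCNCCC. Only the 250 bases before the start are printed, 5′ to 3′ on the strand of the gene, and capitals mark matches of CCNCNCCC on either strand, which may overlap. The windows are chr2:214809684-214809933 on the minus strand for BARD1, chr6:35452088-35452337 on the plus strand for FANCE, chr18:22933078-22933327 on the plus strand for RBBP8 (the first of its 2 windows, inside the span of the gene in GENCODE) and chr3:10026187-10026436 on the plus strand for FANCD2.
BARD1: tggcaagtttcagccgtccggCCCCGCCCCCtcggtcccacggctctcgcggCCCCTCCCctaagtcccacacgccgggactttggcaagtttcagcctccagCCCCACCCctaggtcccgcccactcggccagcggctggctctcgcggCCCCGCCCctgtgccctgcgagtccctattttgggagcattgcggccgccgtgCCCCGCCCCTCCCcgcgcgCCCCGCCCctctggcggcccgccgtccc
FANCE: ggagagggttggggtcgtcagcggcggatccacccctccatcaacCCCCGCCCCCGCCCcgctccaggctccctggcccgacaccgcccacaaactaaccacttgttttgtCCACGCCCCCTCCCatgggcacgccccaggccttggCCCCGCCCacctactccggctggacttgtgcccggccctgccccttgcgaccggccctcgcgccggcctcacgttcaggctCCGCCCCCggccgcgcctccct
RBBP8: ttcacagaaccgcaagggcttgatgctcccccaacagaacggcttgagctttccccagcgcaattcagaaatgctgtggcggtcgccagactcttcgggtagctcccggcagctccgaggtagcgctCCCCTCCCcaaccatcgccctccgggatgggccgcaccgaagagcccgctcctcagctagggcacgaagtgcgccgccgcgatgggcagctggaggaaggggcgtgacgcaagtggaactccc
FANCD2: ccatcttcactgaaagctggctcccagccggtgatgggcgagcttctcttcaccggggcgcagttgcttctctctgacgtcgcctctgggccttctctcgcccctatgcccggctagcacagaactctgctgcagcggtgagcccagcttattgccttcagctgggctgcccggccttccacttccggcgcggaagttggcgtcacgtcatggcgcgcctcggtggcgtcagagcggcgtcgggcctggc

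BARD1 had 8 matches in its window and FANCE had 7, numbers reached by 3.12% and 4.92% of the 27305 genes with a window. RBBP8 had 2 in the window shown, of which 1 lies before the start, and 0 in its other window, and FANCD2 had 0. RAD54L had the most of any member, 9. G and C made up 75.2% of the printed bases of BARD1 and 73.6% of those of FANCE. In RBBP8 they made up 65.2% and in FANCD2 66%. The shares over all genes were not matched for this content. Members with estimates nearer 0 also held matches, with 3 each for MRE11, XRCC2 and SLX4 and 2 for BLM, while FANCF, with one of the lower estimates, had 0 and FANCB, with one of the higher, had 2. Over the members, 21 of 32 (65.6%) held at least 1 match, beside 58.9% of all genes. A site for E2F, the S phase factor (TTTCCCGC, TTTGGCGC, TTTCGCGC or TTTGCCGC on either strand), was in the windows of 5 of 32 members, EXO1, XRCC2, FANCA, FANCC and FANCD2, or 15.6% beside 3.99% of all genes. In the list of DNA replication and G1/S genes it was in 19 of 33. The CCAAT box (CCAAT) was in 13 members, 40.6% beside 39.7% of all genes, and the cell cycle element CHR (TTTGAA) in 3, 9.38% beside 18.2%. These matches describe letters in a window and not bound sites.

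The genes of end resection held the largest differences. RBBP8, which encodes CtIP, the cofactor that starts resection, ranked 1 among the 35 members by TPM in shKLF5 library 1 and 18 in shKLF5 library 2, against 1 in scramble. It had 3224 and 1161 counts in shKLF5 libraries 1 and 2, against 4840 in scramble, or 48.5 and 14.3 TPM against 61.7 TPM. Both shKLF5 libraries were below scramble, and library 2 was far below library 1. The log2 fold change of RBBP8 (ENSG00000101773; GRCh38 chromosome 18, 22798261 to 23026488, plus strand) was -1.56 (SE 0.53), its 95% confidence interval ran from -2.79 to -0.33, and the single libraries gave -1.02 in library 1 and -2.44 in library 2. By edgeR's quasi-likelihood test its p was 0.0190 and its adjusted p 0.474. Its main coding transcript, RBBP8-201, had 2007 and 732 counts, against 2928 in scramble, and RBBP8-202 had 471 and 104, against 676.

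NBN, the subunit of the MRN complex that recruits the damage kinase to breaks, had 395 and 251 counts in the shKLF5 libraries, against 605 in scramble. In normalised terms that is 9.12 ± 2.69 CPM (SD, n = 2), against 22.8 CPM in scramble. Both shKLF5 libraries lay below the single scramble library, as they did for 36.5% of all genes tested and 41.6% of protein-coding ones. NBN was estimated at -1.32 (SE 0.44), with a 95% confidence interval from -2.33 to -0.30. It had the smallest p of the members by edgeR's quasi-likelihood test, 0.0173, and an adjusted p of 0.474. NBN (ENSG00000104320) lies on the minus strand of GRCh38 chromosome 8, from 89933336 to 90003228. RAD50, the coiled-coil ATPase of the same complex, had 2265 and 1679 counts, against 2393 in scramble, and was lower in both libraries, with an estimate of -0.69 (SE 0.36, 95% interval -1.53 to 0.15). By edgeR's quasi-likelihood test its p was 0.0936 and its adjusted p 0.596. MRE11, the nuclease, had 1048 and 1095 counts, against 984, and an estimate of -0.29 (SE 0.37) that turned to 0.14 with library size alone and to 0.30 on the log2(TPM + 1) scale. The 3 subunits of MRN thus had different estimates, but their confidence intervals overlap, as the plot of fold changes shows. EXO1, the exonuclease of longer-range resection, had 705 and 1114 counts, against 765 in scramble, and lay below scramble in library 1 and above it in library 2. BLM, the helicase mutated in Bloom syndrome, had 689 and 697 counts, against 571, and an estimate of -0.13 (SE 0.39) that turned to 0.30 and 0.23 on those scales.

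**Figure D2:**
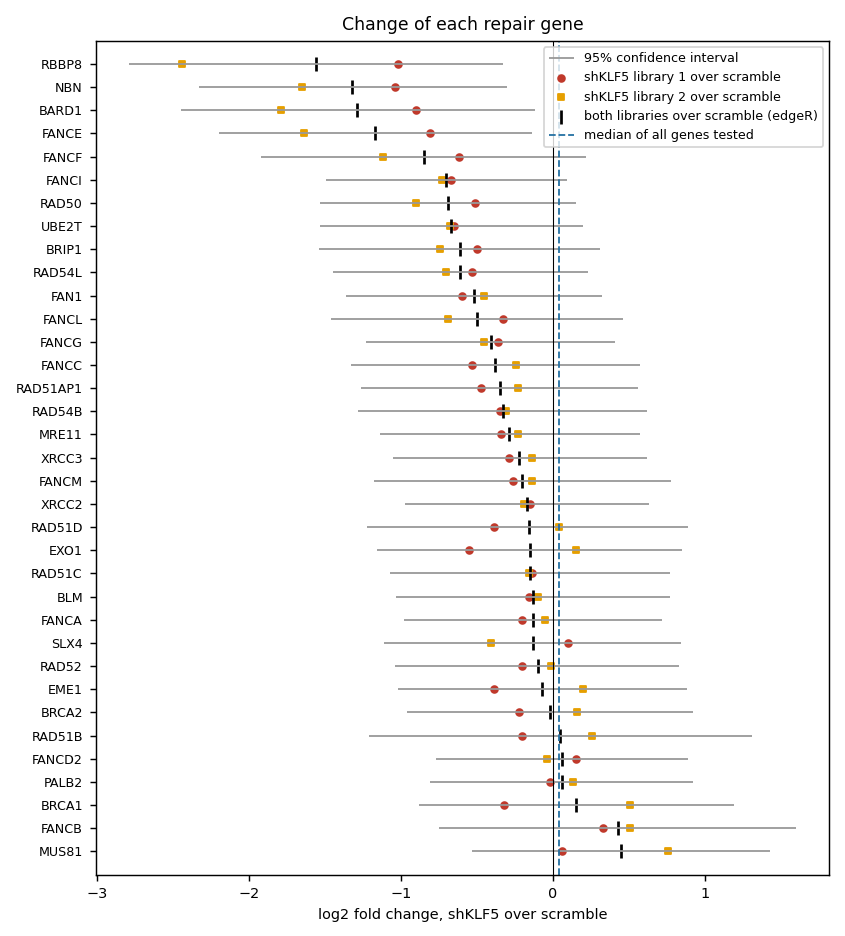
Log2 fold change of each repair gene in shKLF5 over scramble, sorted from lowest to highest. The tick is edgeR's estimate over both libraries, the grey line its 95% confidence interval, and the coloured points are each shKLF5 library alone. The intervals of RBBP8, NBN, BARD1 and FANCE lie wholly below 0; the dashed line marks the median of all genes, 0.04.

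In the BRCA1 complex, BARD1 had the lowest estimate and BRCA1 the highest. BRCA1, the scaffold of the complex and a ubiquitin ligase, had 1127 and 1952 counts in shKLF5 libraries 1 and 2, against 1046 in scramble. It lay below scramble in library 1 and above it in library 2, on the CPM scale, with a log2 fold change of 0.15 (SE 0.45). BARD1, its obligate partner in the ligase, had 272 and 142 counts, against 379 in scramble, and was lower in both libraries. BARD1 was estimated at -1.29 (SE 0.50), the 95% confidence interval ran from -2.45 to -0.12, and the single libraries gave -0.90 in library 1 and -1.79 in library 2. edgeR's quasi-likelihood test gave BARD1 a p of 0.0343 and an adjusted p of 0.505. BARD1 (ENSG00000138376) is on GRCh38 chromosome 2, 214725646 to 214809711, minus strand. BRIP1, the helicase also called FANCJ, had 577 and 475 counts, against 606, and stood at -0.61 (SE 0.40, 95% interval -1.54 to 0.31). By edgeR's quasi-likelihood test BRIP1 had a p of 0.162 and an adjusted p of 0.661. PALB2, which bridges BRCA1 to BRCA2, had 32.4 and 36.0 CPM, against 32.9 CPM in scramble, which lay between them.

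Genes that act after resection as mediators had estimates close to 0. BRCA2, a central mediator, had 668 and 846 counts in the shKLF5 libraries, against 578 in scramble, and an estimate of -0.02 (SE 0.41, 95% interval -0.96 to 0.92). RAD51B, RAD51C, RAD51D, XRCC2 and XRCC3 act together in small complexes. RAD51C had 17.2 and 17.0 CPM, against 18.9 CPM in scramble. XRCC2 had 81.3 and 79.0 CPM, against 90.4 CPM, and XRCC3 had 38.6 and 42.8 CPM, against 47.2 CPM. RAD51D (7.76 and 10.4 CPM, against 10.2 CPM) and RAD51B (2.68 and 3.71 CPM, against 3.08 CPM) each had scramble between the shKLF5 libraries. RAD52, a mediator that anneals strands, had 560 and 623 counts, against 479, and an estimate of -0.10 (SE 0.40). With library size alone the estimates of BRCA2, RAD51C, RAD51D, XRCC2, XRCC3 and RAD52 were all positive. Over these 7 mediators the log2 fold changes ran from -0.22 to 0.05, a narrower range than in any other role group of more than 3 genes.

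The 3 genes that drive strand exchange had negative estimates in each library. RAD54L, the motor that remodels the recombining DNA, had 1207 and 1036 counts in shKLF5 libraries 1 and 2, against 1290 in scramble, and an estimate of -0.61 (SE 0.36, 95% interval -1.45 to 0.23). The p of RAD54L by edgeR's quasi-likelihood test was 0.130, with an adjusted p of 0.629. RAD51AP1, which stimulates pairing of the strands, had 17.4 and 20.6 CPM, against 24.2 CPM, and RAD54B, a relative of RAD54L, 12.1 and 12.4 CPM, against 15.4 CPM. The direction of RAD51AP1 and RAD54B turned with library size alone and on the TPM scale, and that of RAD54L did not. RAD54B shares its locus with FSBP on the same strand, so counts could be divided unevenly between them.

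After TMM scaling 8 of 9 genes of the Fanconi core and its conjugating enzyme UBE2T lay below scramble in each shKLF5 library. Of these, FANCE, FANCF, FANCL and UBE2T kept a negative estimate under every alternative run, while FANCA, FANCC, FANCG and FANCM turned under at least 1. FANCE, which docks FANCD2 to the core, had 811 and 440 counts in shKLF5 libraries 1 and 2, against 1055 in scramble. The gene has a single annotated transcript in these tables, so this value does not depend on how reads were split among isoforms. FANCE was estimated at -1.17 (SE 0.44), with a 95% confidence interval from -2.20 to -0.14. By edgeR's quasi-likelihood test FANCE had a p of 0.0306 and an adjusted p of 0.498. FANCE (ENSG00000112039) is at GRCh38 chromosome 6, 35452356 to 35467103, plus strand. FANCF, an adaptor encoded without introns and also with a single transcript, had 273 and 187 counts, against 312, and a log2 fold change of -0.85 (SE 0.46, 95% interval -1.92 to 0.22). The same edgeR quasi-likelihood test gave FANCF a p of 0.103 and an adjusted p of 0.606. FANCC, which binds both, differed less, with 12.9 and 15.7 CPM against 18.6 CPM.

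UBE2T, the conjugating enzyme that works with the core, hardly differed between the shKLF5 libraries, with 21.3 and 20.8 CPM, against 33.4 CPM in scramble. Its log2 fold change was -0.67 (SE 0.37, 95% interval -1.53 to 0.20). For UBE2T edgeR's quasi-likelihood test gave a p of 0.113 and an adjusted p of 0.614. FANCL, the catalytic ligase subunit, had 14.8 and 11.6 CPM, against 18.7 CPM. FANCG had 42.9 and 40.4 CPM, against 55.3 CPM, and FANCA, its partner, 33.7 and 37.4 CPM, against 38.8 CPM. FANCM, the translocase that anchors the core to DNA, had 10.5 and 11.4 CPM, against 12.6 CPM. FANCB, the scaffold of the catalytic module, was the only gene of the core that was higher in both, with 165 and 181 counts against 97 in scramble and a log2 fold change of 0.43 (SE 0.51).

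The target of the core is the pair of FANCD2 and FANCI. FANCI had 2280 and 2124 counts in shKLF5 libraries 1 and 2, against 2687 in scramble, with both shKLF5 libraries close together and below scramble. FANCI was estimated at -0.70 (SE 0.34), with a 95% confidence interval from -1.49 to 0.09. With edgeR's quasi-likelihood test its p was 0.0764 and its adjusted p 0.577. FANCD2 had 2412 and 2060 counts, against 1615, and a log2 fold change of 0.06 (SE 0.36), with normalised levels on either side of scramble. Among the nucleases, FAN1, which cuts near crosslinks, had 31.2 and 34.5 CPM, against 47.1 CPM, and stood at -0.52 (SE 0.36). MUS81, which cuts branched DNA with EME1, had 1496 and 2350 counts, against 1064 in scramble, the highest log2 fold change of the members at 0.45 (SE 0.42, edgeR adjusted p = 0.753). In normalised terms MUS81 had 41.7 and 67.6 CPM, against 40 CPM in scramble. The single libraries gave 0.06 in library 1 and 0.76 in library 2, so the difference lay almost wholly in library 2. EME1 had 26.0 and 39.2 CPM, against 34.1 CPM, and SLX4, the scaffold that gathers nucleases, 815 and 556 counts, against 565. Genes on the opposite strand overlap FANCI (POLG), MUS81 (CFL1 and EFEMP2), EME1 (LRRC59), RAD54L (LRRC41), FANCA (ZNF276) and BRCA1 (NBR2). Such genes also overlap XRCC3 (KLC1), MRE11 (ANKRD49), FAN1 (MTMR10) and FANCL (VRK2). Without a stated strand setting reads of overlapping parts cannot be told apart.

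A ratio of 2 genes within a library does not depend on the scaling of that library. Ratios were taken for 16 pairs of members known to act in a shared complex or step, chosen after the values were seen and given with no test. The count ratio of FANCI to FANCD2 was 0.945 and 1.03 in shKLF5 libraries 1 and 2, against 1.66 in scramble, and the shKLF5 libraries differed from each other by 0.13 on the log2 scale. EME1 to MUS81 was 0.622 and 0.580, against 0.852 in scramble, with a gap of 0.10. Both pairs were lower in both libraries on the TPM scale as well, FANCI to FANCD2 with ratios of 0.934 and 0.813, against 1.20. BARD1 to BRCA1 was 0.241 and 0.0727, against 0.362, and NBN to MRE11 was 0.377 and 0.229, against 0.615, both lower in each library but with wide gaps between them. FANCB to FANCL was higher, 0.311 and 0.449, against 0.195. The pairs PALB2 to BRCA2, XRCC3 to RAD51C, XRCC2 to RAD51D and UBE2T to FANCL stayed within 0.31 of scramble on the log2 scale in each library. How often pairs of other genes differ this much or this little was not counted, so these ratios have no background.

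**Figure D3:**
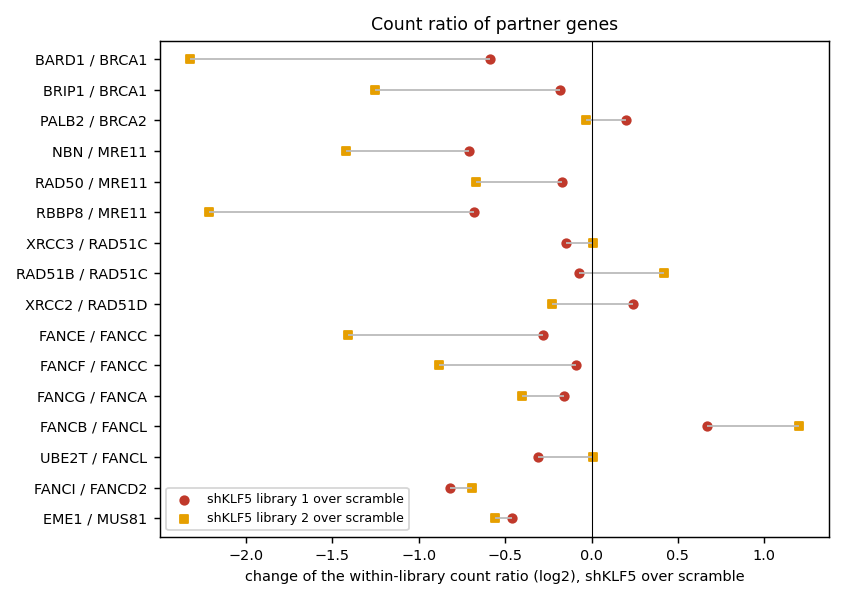
Change of the within-library count ratio of 16 pairs of partner genes in shKLF5 over scramble, on the log2 scale, 1 point per shKLF5 library. FANCI to FANCD2 and EME1 to MUS81 lie below 0 with points close together, BARD1 to BRCA1 and RBBP8 to MRE11 lie below 0 with a wide gap, and FANCB to FANCL lies above 0.

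The shKLF5 libraries also differed from each other. The median size of that gap over the members was 0.24 on the log2 scale, beside 0.41 over all genes tested and 0.38 over protein-coding ones. For 12 of the 35 members the gap was wider than the mean difference from scramble. Only RBBP8 had a gap above 1. Neither count was taken over all genes tested. In library 2, 16 members were lower than in library 1, and the median of library 2 over library 1 was 0.06.

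Most reads of the members were assigned to protein-coding transcripts, 76.2% and 73.3% in shKLF5 libraries 1 and 2, against 77.7% in scramble. Retained intron transcripts took 6.16% and 8.10%, against 5.95%, and transcripts annotated for nonsense-mediated decay 9.71% and 10.4%, against 9.28%. Of the 33 members with other than coding transcripts, the coding share was lower in both shKLF5 libraries for 16 and higher in both for 9. Of 12236 protein-coding genes tested that also have other transcripts, 42.2% had a lower share in each library and 22% a higher one. FANCD2 had more in a decay transcript: FANCD2-204 took 28.9% and 23.5% of its counts, against 19.1% in scramble. RAD52 had a smaller coding share, 58.1% and 49.3%, against 67.6%, and so had RAD51C, with 76.3% and 67.6%, against 85.3%. MUS81 had a larger coding share, 61.1% and 54.7%, against 49.2%, so its coding transcripts summed to 914 and 1286 counts, against 523 in scramble. Some genes were dominated by noncoding models in every library: XRCC2-202, a processed transcript, held 75.9% and 77.2% of XRCC2, against 80.3%, and decay transcripts held 59.0% and 61.0% of RAD50, against 59.3%. NBN and RAD51D had coding isoforms that changed places between the shKLF5 libraries. NBN-203 held 60.1% of NBN in library 1 and 0.0732% in library 2, against 13.8% in scramble, and RAD51D-202 held 4.87% and 60.3% of RAD51D, against 20.3%. The files hold no measure of how certain such splits are.

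**Figure D4:**
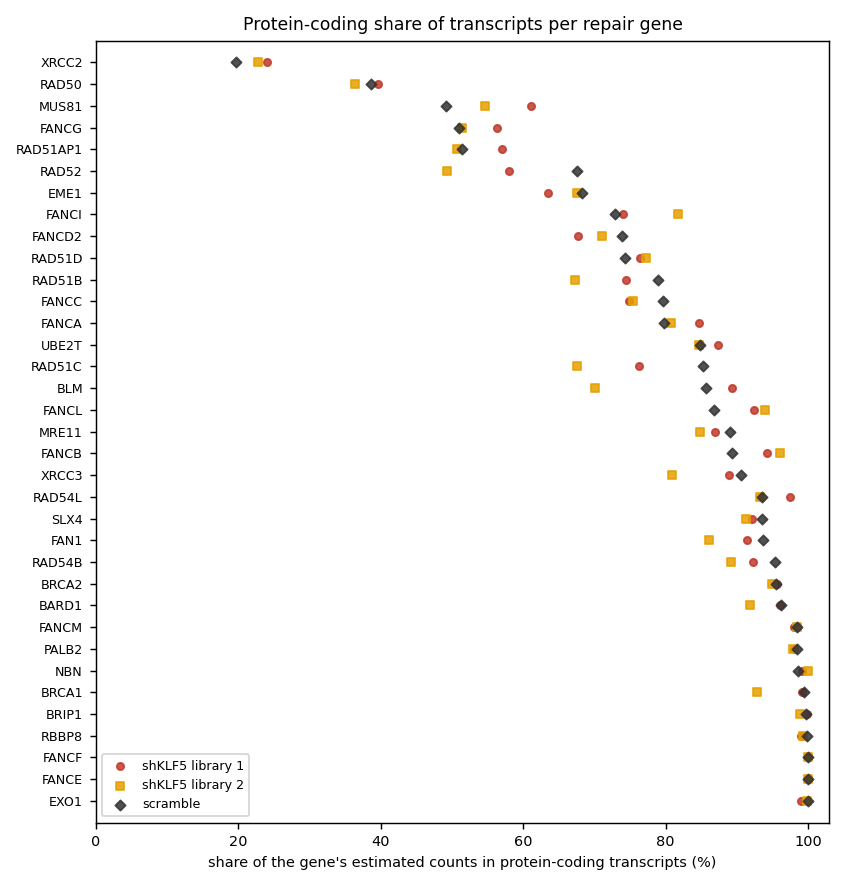
Share of each gene's estimated counts that was assigned to protein-coding transcripts, in percent, for the 35 repair genes and 3 libraries; each point is 1 library. RAD52 and RAD51C lie left of scramble in each shKLF5 library, MUS81 lies to its right, and XRCC2 and RAD50 are under 50% in every library.

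A list of 34 further homologous recombination and Fanconi genes had a median of -0.12, or 0.31 with library size alone. Of these, 18 (52.9%) lay below scramble in each shKLF5 library and 8 above it. Beside that, 36.5% of all genes tested and 41.6% of protein-coding ones lay below in each. The estimates of the list ran from -0.97 to 0.60, and its summed level was 575 and 586 TPM, against 450 TPM in scramble. The lowest p among them belonged to RMI1, which works with BLM to resolve recombination intermediates, with 613 and 556 counts, against 863 in scramble, and a log2 fold change of -0.97 (SE 0.38, edgeR adjusted p = 0.505). BRCC3, a deubiquitinase of the BRCA1-A complex, stood at -0.78, MND1, a pairing factor best known from meiosis, at -0.81, USP1, which removes ubiquitin from FANCD2, at -0.70, and RPA1, of the single-strand binding complex, at -0.71. The median of 19 damage signalling genes was -0.17, with 9 of them (47.4%) below scramble in each library and 2 above. It was -0.38 in library 1 and 0.03 in library 2, and 0.26 with library size alone. Their summed level was 347 and 393 TPM, against 308 TPM in scramble. RNF168, a ubiquitin ligase at breaks, had 1285 and 1291 counts, against 1848 in scramble, and a log2 fold change of -0.93 (SE 0.35, edgeR adjusted p = 0.490). RIF1, which restrains resection, stood at -0.92, TIMELESS, of the fork protection complex, at -0.75, and CHEK2, a checkpoint kinase, at -0.47. ATM, the kinase activated by breaks, had 1773 and 1968 counts, against 1012, and stood at 0.48 (SE 0.37).

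DNA replication and mitosis genes had lower medians. The median over 37 replication and G1/S genes was -0.56, and 33 of them (89.2%) lay below scramble in each shKLF5 library. Over 38 mitotic genes the median was -0.55, and 36 (94.7%) lay below it. For the repair members these values were -0.22 and 24 of 35, and for all genes tested 0.04 and 36.5%. At an unadjusted p under 0.05 stood 8 replication genes and 11 mitotic genes, all lower, beside 3.50% of all genes lower. After adjustment by edgeR's test 0 of them passed. With library size alone the medians were -0.13 and -0.12, so they stayed negative where that of the members turned positive. The 15 repair members that textbooks place among S and G2 phase genes, such as BRCA1, BLM, EXO1 and FANCD2, had a median of -0.15, with -0.39 in library 1 and -0.10 in library 2. The 20 others had a median of -0.31, with -0.34 in library 1 and -0.28 in library 2, so the order of the 2 lists was not the same in both libraries. Of the 4 members at an unadjusted p under 0.05, BARD1 is on that S and G2 list and RBBP8, NBN and FANCE are not. Among other repair routes, all 7 mismatch repair genes lay below scramble in each library, with a median of -0.64, or -0.21 with library size alone. Of 10 end joining genes 6 did, with a median of -0.36 that turned to 0.07 with library size alone, and of 20 excision repair genes 14 did, with a median of -0.25 that turned to 0.17. These lists had lower values beside the members, and their part in the members' values was not tested.

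**Figure D5:**
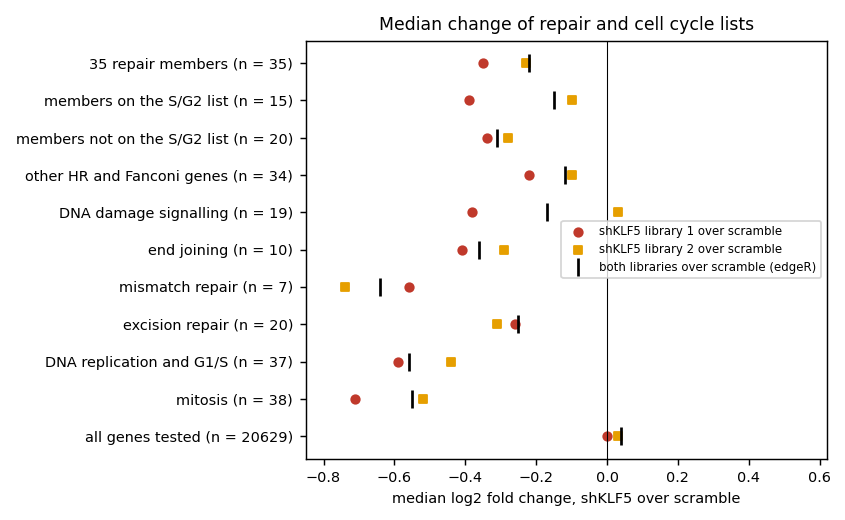
Median log2 fold change of the repair members and of other repair and cell cycle lists in shKLF5 over scramble, with the median in each shKLF5 library alone and the number of genes tested. Replication, mitosis and mismatch repair lie between -0.64 and -0.55, the repair members at -0.22 and all genes at 0.04.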

How the data were processed

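RNA was measured in 3 TE5 libraries, 2 of shKLF5 and 1 of scramble. The submitters' processing notes name kallisto, DESeq2 and the build hg19, and no version of either tool. The sources used here do not give the transcript set or the strand setting. The deposited estimated counts per transcript are not normalised, and the deposited TPM values are counts per effective length scaled to the same sum, per the file headers. Of 196354 transcripts, 181857 (92.6%) were matched by identifier to GENCODE 29, whose GRCh38 coordinates are printed; the unmatched transcripts held 3.42%, 3.40% and 3.05% of counts in shKLF5 libraries 1 and 2 and scramble. Of the 404 transcripts of the members, 375 had the same length there.

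Counts were summed per gene, rounded and tested in R 4.3.3 with edgeR 4.0.16. Genes passed filterByExpr, and scaling was by TMM (factors 1.11, 1.10 and 0.82 in the same order). The quasi-likelihood F test ran with legacy = FALSE, and p-values of 20629 genes were adjusted by Benjamini-Hochberg at 0.05. There was 1 residual degree of freedom, so scramble, with no replicate, is taken to vary like the shKLF5 libraries. To it the test added a prior of 6.86 degrees of freedom (median over genes), estimated across genes. The p-values and confidence intervals thus rest mostly on spread shared across genes, and little on that of each gene. CPM are TMM-normalised, SE is the absolute log2 fold change over the square root of F, and values of 1 library have no test and use a prior count of 2. Reads had no molecular identifiers, so counting error is that of reads.

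Alternatives were other scalings, filters and gene sets, DESeq2 1.42.0, edgeR's legacy fit, length-scaled TPM, limma 3.58.1 on log2(TPM + 1) and log2(TPM + 0.1), and each shKLF5 library left out. Full statistics go to the 10 members with the smallest p, and up to 5 genes are named from each of the lists of other pathway genes and damage signalling, by smallest p. The members and lists were chosen with earlier results of these data known.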

Additional observations from a re-analysis of the deposited data

How the results depend on the processing

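No member passed an adjusted p of 0.05 under any alternative run. With TMM replaced by library size alone, 0 members had an unadjusted p under 0.05 and 11 were lower in both shKLF5 libraries, where 12.5% of all genes were, with a members' median of 0.21. With limma on log2(TPM + 1) and log2(TPM + 0.1), 0 members had an unadjusted p under 0.05, 12 were lower in both, where 11.3% of all genes were, and the median was 0.18 and 0.20. No filter on low counts left 0 at an unadjusted p under 0.05, length-scaled TPM left 3, and a mean CPM of at least 5 left 2, with a median of -0.11. With that CPM filter 17 of the 33 members tested were lower in both, where 35.5% of genes were. With protein-coding genes only, 21 of 35 were lower in both, and the share over all genes of that fit was not counted. The members' median stayed below that of all genes under every alternative, by 0.08 to 0.59. Leaving out each shKLF5 library in turn gave members' medians from -0.35 to -0.23 and 26 to 31 members lower than scramble, where 48.3% and 50.2% of all genes were, with no test, since no residual degrees of freedom remain. The estimate kept its sign in 14 members under every alternative, BARD1, BRIP1, RAD50, NBN, RBBP8, RAD54L, FANCB, FANCE, FANCF, FANCL, UBE2T, FANCI, FAN1 and MUS81. The alternatives all draw on the same 3 libraries. How many of all genes kept their sign was not counted, so this number has no background.

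Over all genes, 5 genes were called higher and 16 lower by the legacy fit of edgeR, 64 and 52 by DESeq2, and 0 by the main edgeR test. At an unadjusted p under 0.05 the main test had 1171 higher and 722 lower. Library size alone gave 2610 and 242, a mean CPM of at least 5 gave 331 and 268, log2(TPM + 0.1) gave 2106 and 137, and log2(TPM + 1) gave 1484 and 167. DESeq2 gave 586 and 518, and protein-coding genes alone gave 838 and 479. The causes were not tested. No paired analysis was possible because scramble has a single library with no replicate number. RAD51B and FANCB were the members with under 100 counts in a library.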
